A study of Mus musculus with 18 samples.

Results

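H3K9me3 was compared at the genes of the mouse prolactin, Psg and Ceacam families between wild-type mouse embryonic stem cells (mESCs) and cells that lack UHRF1 or DHX9. The members were all genes of the study's annotation whose name is Prl followed by a digit, or Psg or Ceacam followed by a number alone. This gave 25 Prl genes on chromosome 13 and 13 Psg and 15 Ceacam genes on chromosome 7, which are 53 of 35858 annotated genes. H3K9me3, trimethylation of lysine 9 on histone H3, marks heterochromatin, and it was mapped by chromatin immunoprecipitation and sequencing (ChIP-seq). All cells were of the mESC line E14TG2a, and each of 3 genotypes, labelled WT, UHRF1KO and DHX9KO (below Uhrf1 KO and Dhx9 KO), had 2 libraries. UHRF1 is a ubiquitin ligase needed to copy DNA methylation after replication, and DHX9 is an RNA helicase. The Uhrf1 KO cells were clonal lines made with CRISPR-Cas9 in cells that carry the study's inducible reporter, and the labels do not say which clone each library came from. How the Dhx9 KO cells were made is not given in the sources used here, and the labels name no reporter for the WT and Dhx9 KO cells. For H3K9me3 ChIP-seq at imprinted loci, a figure legend of the study names wild-type cells with the reporter. The other 12 samples of the study were not analysed here.

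Mouse Prl genes other than prolactin itself are an expanded family of hormones and cytokines made mainly by trophoblast and decidua, among them the placental lactogens, which act through the prolactin receptor. Pregnancy-specific glycoproteins (Psg) are secreted by trophoblast and belong to the immunoglobulin superfamily. The related Ceacam genes encode adhesion molecules and secreted proteins, some of them placental and others found in epithelia, blood cells or the inner ear. mESCs represent the epiblast lineage and not trophoblast. Expression was not measured in the files used here.

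A gene's window was the span of its transcripts plus 5 kb on each side, and the measure used throughout is the percent of the window's bases that lie under peaks. The lists held between 70195 and 125453 peaks, and reads inside peaks numbered between 16966576 and 20875020 in 5 libraries and 6703081 in Uhrf1 KO replicate 1, which stands apart. Reads outside peaks are not in the lists, so a gene without a peak has no value below the threshold of the peak caller. At peaks with the same borders in 2 lists, the WT and Dhx9 KO lists shared every background read count (100% of peaks), while the Uhrf1 KO lists, which shared them with each other, had the same count as the other lists at no more than 4.29%. The Uhrf1 KO genotype and its background reads therefore cannot be told apart, and neither can fewer cells with the mark and less of the mark per cell. Replicate numbers name separate libraries, and with 2 libraries against 2 an exact permutation test cannot give a p below 0.3333.

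The stretches around the start sites of 5 members are shown because they stand for the patterns described below. Each runs from 250 bases before to 50 bases after the RefSeq start (GRCm38.p6), 5′ to 3′ on the strand of the gene, and capitals mark every CG dinucleotide, the site of DNA methylation in mammals. The stretch at Psg17 lay wholly under a peak in all 6 libraries, and so did that at Ceacam2. The stretch at Psg27 lay under a peak in the WT and Dhx9 KO libraries and in neither Uhrf1 KO library. The stretch at Ceacam20 lay under a peak in the 2 WT libraries alone, and that at Prl3d1 had no peak in any library.
Psg17, chr7:18821542-18821841, - strand: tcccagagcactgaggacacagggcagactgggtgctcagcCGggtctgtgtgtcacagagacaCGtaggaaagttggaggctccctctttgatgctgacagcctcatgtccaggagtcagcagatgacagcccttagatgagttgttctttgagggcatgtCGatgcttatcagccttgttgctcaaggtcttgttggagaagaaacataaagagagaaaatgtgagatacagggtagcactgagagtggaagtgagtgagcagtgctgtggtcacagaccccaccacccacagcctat
Psg27, chr7:18567256-18567555, - strand: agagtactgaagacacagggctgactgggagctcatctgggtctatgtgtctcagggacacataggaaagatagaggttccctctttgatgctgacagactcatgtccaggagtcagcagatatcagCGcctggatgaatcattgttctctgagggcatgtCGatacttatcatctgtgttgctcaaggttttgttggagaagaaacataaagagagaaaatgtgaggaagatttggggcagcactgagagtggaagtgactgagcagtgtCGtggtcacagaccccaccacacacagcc
Ceacam2, chr7:25539955-25540254, - strand: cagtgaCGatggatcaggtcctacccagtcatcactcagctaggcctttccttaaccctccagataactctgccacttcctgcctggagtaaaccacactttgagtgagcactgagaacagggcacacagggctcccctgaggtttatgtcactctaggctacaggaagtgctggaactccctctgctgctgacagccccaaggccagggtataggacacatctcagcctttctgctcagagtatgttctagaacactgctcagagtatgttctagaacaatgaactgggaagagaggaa
Ceacam20, chr7:19965162-19965461, + strand: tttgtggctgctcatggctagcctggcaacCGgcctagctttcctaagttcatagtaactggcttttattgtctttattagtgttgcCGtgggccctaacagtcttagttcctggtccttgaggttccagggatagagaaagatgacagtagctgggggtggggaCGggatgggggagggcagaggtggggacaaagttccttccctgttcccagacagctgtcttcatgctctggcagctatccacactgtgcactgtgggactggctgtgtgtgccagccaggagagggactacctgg
Prl3d1, chr13:27093939-27094238, + strand: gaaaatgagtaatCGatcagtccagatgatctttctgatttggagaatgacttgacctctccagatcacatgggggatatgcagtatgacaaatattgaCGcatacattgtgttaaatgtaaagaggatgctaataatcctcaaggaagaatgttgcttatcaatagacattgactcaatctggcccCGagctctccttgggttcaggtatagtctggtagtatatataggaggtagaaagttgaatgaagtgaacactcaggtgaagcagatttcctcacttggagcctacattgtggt
RefSeq stretches were found for 21 Prl, 10 Psg and 13 Ceacam genes. They held few CG dinucleotides, with a median of 2.5 for Prl, 2 for Psg and 2 for Ceacam, beside 7 over 32851 stretches of all genes. A CG was present in 23 of 24 Prl, 9 of 11 Psg and 13 of 15 Ceacam stretches, and in 94.6% of all.

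Psg genes were among the genes most covered by H3K9me3 in WT cells. All 13 had a peak in both WT libraries, and the median share of the window under peaks was 66.2% in replicate 1 and 63.8% in replicate 2, beside 8.86% and 8.30% over all genes. The family's median of the WT mean, 57.3%, was higher than that of 89.9% of all genes. Psg22, which is expressed in trophoblast giant cells, was covered over 88.7% and 83.8% of its window, Psg17, whose product binds the tetraspanin CD9, over 77.0% and 79.2%, and Psg19 over 83.5% and 71.2%. The least covered were Psg16 (39.8% and 30.9%), Psg23 (46.6% and 37.7%) and Psg26 (61.3% and 46.0%). A start site within 1 kb of a peak was found for 13 Psg genes in replicate 1 and 12 in replicate 2, beside 29.1% and 28.4% of all genes.

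Ceacam genes were covered less evenly. A peak was present at 15 and 14 of the 15, and the median share was 32.2% and 40.5%, which puts the family's median of the WT mean above 77.7% of all genes. Ceacam3 was covered over 72.0% and 74.7% of its window, Ceacam18 over 70.2% and 56.4%, and Ceacam16, a gene of the tectorial membrane of the inner ear, over 38.1% and 67.7%. Ceacam13 had 1.61% and 0%, Ceacam5 8.98% and 4.83% and Ceacam11 14.4% and 15.6%. Ceacam1, the receptor of mouse hepatitis virus, had 23.1% and 41.7%, its neighbour Ceacam2 had 44.8% and 45.2%, and Ceacam10, which encodes a secreted protein, had 32.2% and 36.8%. The replicates were far apart at Ceacam15 (14.6% and 42.5%), Ceacam16 and Ceacam1.

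Prl genes were nearly free of peaks. Of the 25, 5 had a peak in WT replicate 1 and 7 in WT replicate 2, beside 64.8% of all genes in each, and 13 had none in any of the 6 libraries. These 13 include Prl3d1 and Prl3b1, which encode placental lactogens, Prl2c2 (proliferin) and Prl7d1 (proliferin-related protein), and also Prl2a1, Prl2b1 and Prl2c1. The median share was 0% in every library. All genes at 0% in both WT libraries made up 30.1%, so a gene with no peak is common. The exception was Prl2c3, another proliferin gene, with 30.1% and 25.9% in WT. Prl8a8 had 0% and 16% and Prl3c1 0% and 9.36%. A peak in all 6 libraries was found at Prl2c3, Prl8a1 and Prl8a2 (decidual prolactin-related protein).

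**Figure D1:**
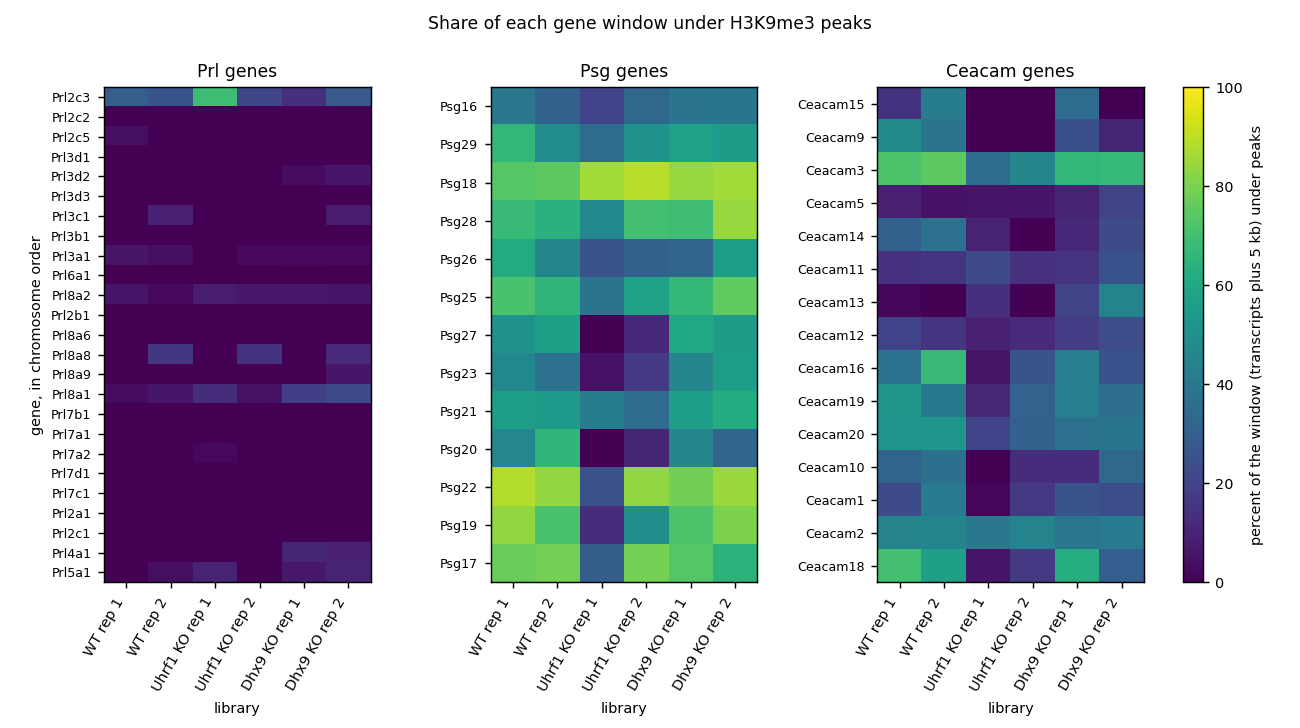
Percent of each gene window under H3K9me3 peaks, from 0 (dark) to 100 (yellow), for the 25 Prl, 13 Psg and 15 Ceacam genes in chromosome order (rows) and the 6 libraries (columns). Psg rows are bright in the WT and Dhx9 KO columns and darker in Uhrf1 KO replicate 1, and 13 Prl rows are at 0 throughout.

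Members lie in clusters, and the peaks were not spread evenly along them. The Psg genes and 8 Ceacam genes share 1 stretch of 2.16 Mb from Ceacam15 to Psg17 (chr7:16671331-18821591, mm10), which was covered over 21.8% and 20.9% in WT, 14.8% and 19.0% in Uhrf1 KO and 22.1% and 26.1% in Dhx9 KO, near the 21.4% and 20.4% of chromosome 7 in WT. The windows of the Psg genes alone, 311801 bp together, were covered over 59.7% and 55.0% in WT, so the sequence between members held less. The main Prl cluster, 22 genes over 1.07 Mb (chr13:27094189-28151595), was covered over 5.06% and 5.45% in WT, 8.34% and 6.58% in Uhrf1 KO and 5.34% and 9.20% in Dhx9 KO. Chromosome 13 was at 16.4% and 15.6% in WT. The 3 genes from Ceacam16 to Ceacam20 were, of the clusters with at least 2 members, the one with the widest difference between genotypes, with 54.1% and 52.4% in WT, 15.2% and 29.8% in Uhrf1 KO and 45.8% and 34.8% in Dhx9 KO.

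**Figure D2:**
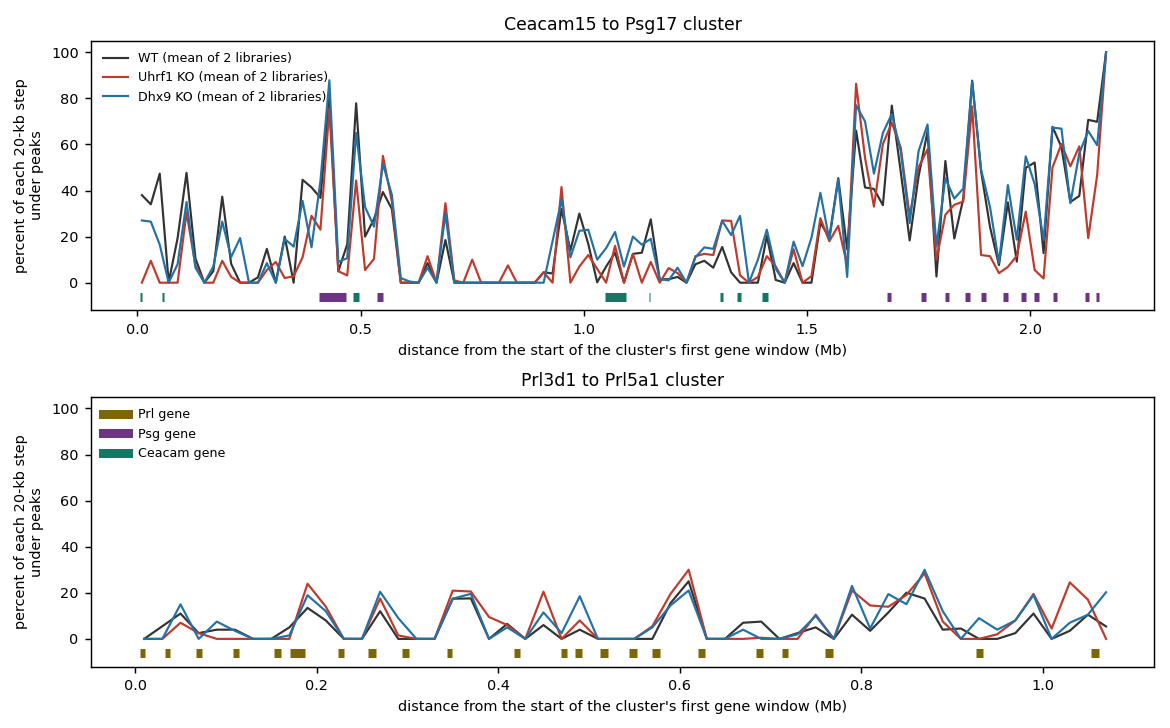
Percent of each 20-kb step under peaks (vertical axis, mean of the 2 libraries of a genotype) against the distance in Mb from the start of the first gene window of the cluster, for the Ceacam15 to Psg17 cluster and the main Prl cluster; thick bars mark genes. Near the right end of the upper panel, where most Psg genes lie, peaks are dense in all genotypes, and the steps of the Prl cluster are low or at 0.

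Within their windows, Psg peaks in WT cells lay more over the genes and the sequence before them than over the sequence after them. In WT replicate 1, 72.9% of exon bases, 65.8% of intron bases and 68.1% of the 5 kb upstream were under peaks, beside 30.2% of the 5 kb downstream. For Ceacam genes the same shares were 39.0%, 37.0%, 42.4% and 20.3%. Repeats were depleted under Psg peaks: of the bases under peaks, 19.5% in WT replicate 1 and 20.6% in replicate 2 were soft-masked as repeats, against 61.2% and 55.6% of the window bases outside peaks. On chromosome 7 as a whole, these shares were 26.4% and 27.2% under peaks and 37.9% and 37.6% outside. In the Prl windows the order was reversed, with 49.6% and 61.9% under peaks and 36.6% and 36.1% outside. These Prl values rest on only 9616 and 12476 bases under peaks, of which 5800 and 5000 lay at Prl2c3. In the Psg windows, 186220 and 171439 bases were under peaks. Reads from repeats are harder to place, and the part of this in the repeat shares was not tested.

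**Figure D3:**
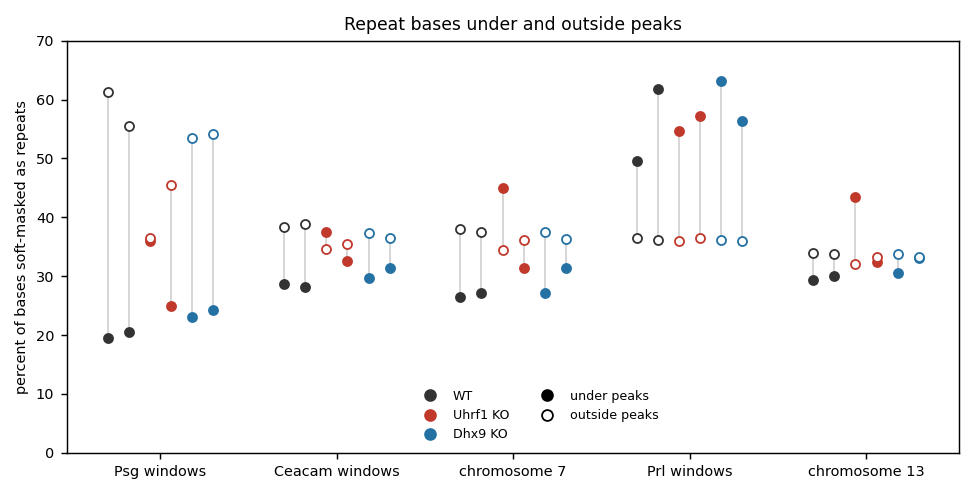
Percent of bases soft-masked as repeats (vertical axis), under peaks (filled) and outside peaks (open), in each of the 6 libraries for the windows of each family and for chromosomes 7 and 13; a grey line joins the 2 values of a library. Filled points lie below open points in the Psg windows of all 6 libraries, by least in Uhrf1 KO replicate 1 (36.0% and 36.5%), and above them in the Prl windows.

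The windows differ in base composition too. The median GC content was 36.1% for Prl windows, 45.1% for Psg and 45.2% for Ceacam, beside 44.6% over all genes, and CG dinucleotides numbered 3.71, 5.53, 8.60 and 11.1 per kb. As the families arose by duplication, part of their sequence occurs more than once. Of the stretches of 150 bases, the length of the study's reads, a second exact copy in the genome was found for 47.4% at Prl2c3 and 46.8% at Prl2c2, for 16.5% at Ceacam1, 19.9% at Ceacam2 and 17.7% at Psg23, with family medians of 0.586% for Prl, 2.4% for Psg and 0.227% for Ceacam. Peaks at Prl2c3 and their absence at Prl2c2 therefore rest on reads that can be split between the copies, and are uncertain.

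To ask whether H3K9me3 at these families depends on UHRF1, Uhrf1 KO cells were compared with WT. The share of the Psg windows under peaks was 59.7% and 55.0% in WT and 26.7% and 44.7% in Uhrf1 KO, and that of the Ceacam windows was 35.1% and 37.2% in WT and 13.1% and 19.4% in Uhrf1 KO. The groups did not overlap in either family. The mean difference was -21.7 percentage points for Psg (57.4% ± 3.35 against 35.7% ± 12.7, SD, n = 2, exact permutation p = 0.3333, the smallest possible) and -19.9 for Ceacam (36.1% ± 1.48 against 16.2% ± 4.46, n = 2, exact permutation p = 0.3333). With peaks of log2 fold of at least 1 alone, the differences were -3.71 for Psg and -7.27 for Ceacam. The median log2 fold over a whole list was 1.05 and 1.06 in WT and 1.56 and 1.29 in Uhrf1 KO. A cut at 1 thus falls at another place in the WT lists than in the Uhrf1 KO lists, and these smaller differences cannot be read as those of strong peaks. The Prl windows were at 2.13% and 2.77% in WT and 4.29% and 2.01% in Uhrf1 KO, so the groups overlapped (difference 0.699, n = 2, exact permutation p = 1). Of the 19311 bases under peaks in Uhrf1 KO replicate 1, 13278 lay at Prl2c3, which was at 68.9% there and at 20.7% in replicate 2.

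These lower shares stood beside lower shares on the whole chromosome. Relative to the WT mean, Psg windows were at 0.465 and 0.779 in the Uhrf1 KO replicates and chromosome 7 at 0.422 and 0.746, while Ceacam windows were at 0.362 and 0.537. Psg windows were thus close to the chromosome in both libraries, and Ceacam windows were below it in both. Uhrf1 KO replicate 2, which had more reads in peaks than replicate 1, alone differed from the WT mean by -12.7 percentage points for Psg and -16.7 for Ceacam. With the same number of peaks kept from each list, 70195 with the highest log2 fold, the Psg windows were at 48.6% and 37.0% in WT and 26.7% and 38.8% in Uhrf1 KO, and the groups overlapped. The Ceacam windows were then at 22.4% and 19.1% in WT and 13.1% and 15.4% in Uhrf1 KO, and the groups stayed apart. Chromosome 7 was then at 12.4% and 11.1% in WT and 8.84% and 10.9% in Uhrf1 KO.

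**Figure D4:**
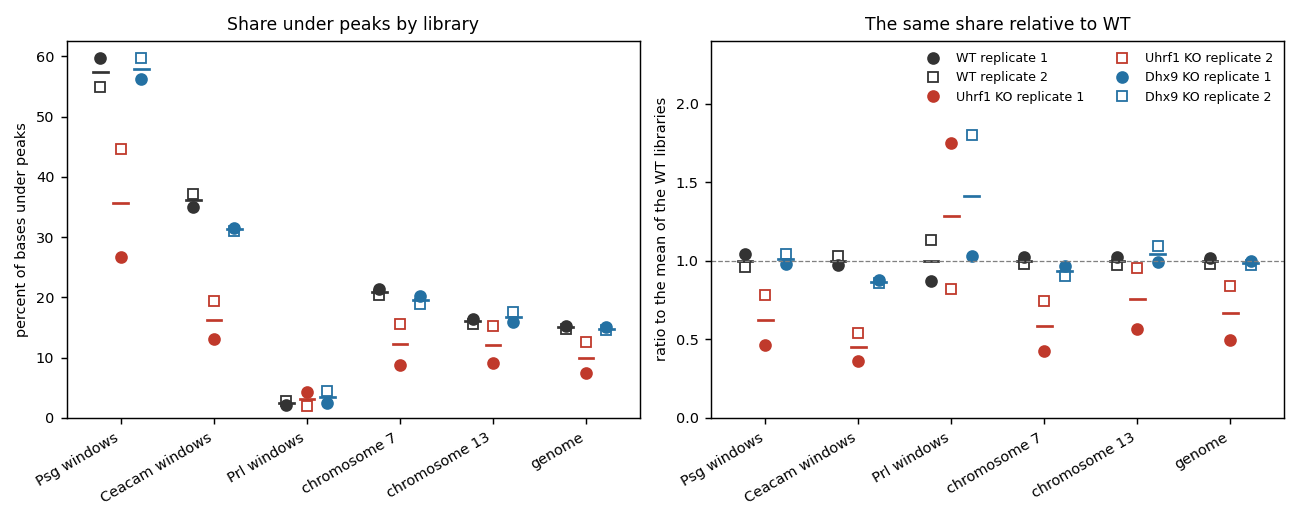
Percent of bases under peaks (left) and the same value as a ratio to the mean of the WT libraries (right, dashed line at 1) for the windows of each family, chromosomes 7 and 13 and the genome; filled circles are replicate 1, open squares replicate 2 and short bars the group means. In Uhrf1 KO (red) the Psg ratios of 0.465 and 0.779 lie near those of chromosome 7, and the Ceacam ratios of 0.362 and 0.537 lie lower.

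Gene by gene, 12 of 15 Ceacam genes, 7 of 13 Psg genes and 1 of the 9 Prl genes with any peak had a lower share in both Uhrf1 KO libraries than in both WT libraries, beside 47.5% of all genes with a peak. Psg18 and Prl8a2 had a higher share in both, beside 7.7% of all genes. Psg18 was covered over 73.8% and 74.8% in WT and 86.2% and 89.3% in Uhrf1 KO, and it was higher in Dhx9 KO too, at 84.2% and 86.2%. Prl8a2 was at 5.48% and 2.24% in WT and 7.64% and 6.56% in Uhrf1 KO, all from a peak in its 3′ flank, between 12128 and 13128 bp from its start. At the cluster's end, Psg17 and Psg22 were low in replicate 1 (29.4% and 25.0%) and in the WT range or near it in replicate 2 (79.2% and 83.8%). Without Uhrf1 KO replicate 1, the counts of lower shares were 12 Ceacam and 7 Psg genes, beside 49.8% of all genes, and with equal numbers of peaks they were 6 and 4, beside 22.6%.

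Ceacam9 and Ceacam15 lost every peak in Uhrf1 KO cells, 2 of the 14 Ceacam genes that had a peak in both WT libraries, beside 17.6% of all such genes, and none of 13 Psg and 4 Prl genes did. The count of lost Ceacam genes was 1 at an FDR of at most 1e-10 and with equal numbers of peaks, and 0 with peaks of log2 fold of at least 1 and with 20 kb of flank. Ceacam9 was at 47.0% and 38.6% in WT, 0% and 0% in Uhrf1 KO and 24.5% and 10.4% in Dhx9 KO. Ceacam15 was at 0% in both Uhrf1 KO libraries, and also in Dhx9 KO replicate 2, with 34.8% in replicate 1. The WT peaks at Ceacam9 were weak, with a highest log2 fold over background of 0.56 and 0.54, under the medians of 1.05 and 1.06 over the WT lists. At Ceacam15 the highest log2 fold was 1.25 and 0.95, near those medians. No member gained a peak, of 17 without one in WT, all of them Prl genes (2.78% of all such genes did), and no member with no start within 1 kb of a peak in either WT library had one in both Uhrf1 KO libraries (0 of 22 Prl and 0 of 4 Ceacam genes, beside 1.03% of all).

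At start sites, the number of Psg genes with a start within 1 kb of a peak was 6 in Uhrf1 KO replicate 1 and 9 in replicate 2, against 13 and 12 in WT, and for Ceacam it was 3 and 3, against 10 and 10 in WT. Over all genes the share with such a start was 10.0% and 20.4% in Uhrf1 KO, against 29.1% and 28.4% in WT. Of the genes with such a start in both WT libraries, 4 of 12 Psg genes (Psg19, Psg20, Psg23 and Psg27) and 6 of 9 Ceacam genes (Ceacam9, Ceacam10, Ceacam16, Ceacam18, Ceacam19 and Ceacam20) had none in either Uhrf1 KO library, beside 33.7% of all genes, so the share for Psg was that of all genes. Psg27, whose start stretch is printed above, was covered over 50.98% and 56.8% of its window in WT and 0% and 11.5% in Uhrf1 KO. Psg23 was at 4.96% and 16.9% in Uhrf1 KO. Ceacam20, expressed in the intestinal epithelium, was at 52.1% and 52.7% in WT and 20.1% and 30.8% in Uhrf1 KO, with the peaks that remained further than 1 kb from its start. Ceacam18 went from 70.2% and 56.4% to 5.69% and 17.1%, and Ceacam10 was at 0% and 12.8%. Ceacam2 was also among the Ceacam genes with a lower share, but by little, with 40.0% and 44.6% in Uhrf1 KO beside 44.8% and 45.2% in WT, and it kept the peak over its start in every library.

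Dhx9 KO cells were compared with the same WT libraries, so the comparisons share their controls. The Psg windows were covered over 56.3% and 59.7% in Dhx9 KO, both between the WT values (difference 0.632 percentage points, 58.0% ± 2.36 against 57.4% ± 3.35, SD, n = 2, exact permutation p = 1). The Ceacam windows were at 31.6% and 31.0%, under both WT libraries (difference -4.80 percentage points, n = 2, exact permutation p = 0.3333, the smallest possible). Relative to the WT mean, Ceacam windows were at 0.874 and 0.860 and chromosome 7 at 0.966 and 0.904. With equal numbers of peaks, the Ceacam windows were at 16.9% and 19.8% in Dhx9 KO against 22.4% and 19.1% in WT, and the groups overlapped. The Prl windows were at 2.52% and 4.41% (difference 1.01, n = 2, exact permutation p = 0.667).

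Prl3d2 and Prl4a1 had a peak in their window in both Dhx9 KO libraries and in neither WT library. They are 2 of the 17 members without one in WT, beside 5.11% of all such genes. No member lost every peak, beside 2.9%. Prl3d2 is a placental lactogen I gene and was at 3.49% and 5.997% in Dhx9 KO. This came from a peak with 130 and 179 ChIP reads in its 3′ flank, 10369 and 9969 bp from its start. WT had a peak of 136 and 108 reads in the same merged region (chr13:27131601-27135000), but outside the window. That region counted as kept, so the call at Prl3d2 rests on the border of the peak. Prl4a1, prolactin-like protein A, was at 10.3% and 9.24%, from a peak of 74 and 68 reads that ends before its start, at -3223 and -3023 bp. Both peaks lay in the 5-kb flanks, and with transcripts alone or with 20 kb of flank no Prl gene met the rule. Dhx9 KO replicate 2 had peaks at 11 Prl genes, the most of any library, and replicate 1 at 7, the number in WT replicate 2.

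Lower shares in both Dhx9 KO than in both WT libraries were found at 5 of 15 Ceacam, 2 of 13 Psg and 1 of 12 Prl genes with any peak, beside 23.0% of all genes, and higher shares at 2, 2 and 4, beside 14.1%. Ceacam13 had the widest higher share, with 20.7% and 45.1% in Dhx9 KO against 1.61% and 0% in WT, and it alone of 4 Ceacam genes without a start near a peak in WT had one in both Dhx9 KO libraries, beside 2.02% of all genes. Ceacam5 was at 10.0% and 20.4%, beside 8.98% and 4.83% in WT. Psg28 was at 68.9% and 84.6% against 67.9% and 63.8% in WT. Ceacam20 was at 37.6% and 39.0%, lower than in WT, and together with Ceacam9 it was 1 of 2 Ceacam genes, of 9, whose start was near a peak in both WT libraries and in neither Dhx9 KO library, beside 8.97% of all genes. Psg17 was at 73.6% and 64.5%, a little under WT. Ceacam3 was at 66.03% and 67.1%.

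Read counts were tested where peaks of all 4 libraries of a comparison could be merged into a region that was covered over at least 80% in each. Of 2528 such regions in the Uhrf1 KO comparison, 3 lay at members, and none passed an FDR of 0.05 (edgeR's quasi-likelihood test over all regions), beside 5.54% lower and 3.2% higher among all; the count at an unadjusted p under 0.05 was 0, in edgeR and in DESeq2. At the first Psg28 region (chr7:18412201-18417600), 269 and 274 reads in WT stood against 137 and 222 in Uhrf1 KO, a log2 change of -0.27 ± 0.16 (SE) relative to library size and called length, with an adjusted p of 0.297 in edgeR. At the second (chr7:18421001-18422200), 126 and 119 reads stood against 71 and 131 (log2 change -0.13 ± 0.19, adjusted p = 0.697 in edgeR). At Ceacam2 (chr7:25529801-25532400), 119 and 104 reads stood against 58 and 165 (0.05 ± 0.19, adjusted p = 0.911 in edgeR). The raw counts of replicate 1 were low at all 3, as was its total.

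In the Dhx9 KO comparison, 6 of 4701 regions lay at members, at Psg18, Psg28, Psg25, Psg23, Psg19 and Ceacam2, and none passed, beside 0.553% lower and 0.0425% higher among all; again the count at an unadjusted p under 0.05 was 0 in edgeR and in DESeq2. The smallest p belonged to Ceacam2 (chr7:25517001-25521000), with 136 and 148 reads in WT and 154 and 217 in Dhx9 KO (0.29 ± 0.18, adjusted p = 0.553 in edgeR). At Psg25 (chr7:18520401-18545200) the counts were 1062 and 965 against 999 and 1298 (0.19 ± 0.12, adjusted p = 0.587 in edgeR), and at Psg23 (chr7:18604401-18608800) they were 170 and 131 against 109 and 154 (-0.27 ± 0.19, adjusted p = 0.648 in edgeR). These tests cover regions that kept their peaks and say nothing of the starts that had none.

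With regions covered over at least 50%, 16 and 34 regions lay at members and none passed in either comparison, beside 0.754% lower and 0.411% higher of 16321 regions for Uhrf1 KO and 0.128% lower and 0.00337% higher of 29660 for Dhx9 KO. The smallest adjusted p in edgeR was 0.0936, at Psg18 in Uhrf1 KO (log2 change -0.48 ± 0.14), where the share under peaks was higher than in WT. Reads at Psg18 numbered 827 and 764 in WT and 347 and 664 in Uhrf1 KO, and these counts are not scaled. Reads in peaks over the whole lists numbered 20875020 and 19543177 in WT and 6703081 and 16966576 in Uhrf1 KO. The called length at Psg18 was 15800 and 16200 bp in WT and 18400 and 17800 bp in Uhrf1 KO. The log2 change is relative to library size and called length, so it is not a fall in raw reads. In Dhx9 KO the smallest adjusted p was 0.281, at Psg29 (0.46 ± 0.15).

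**Figure D5:**
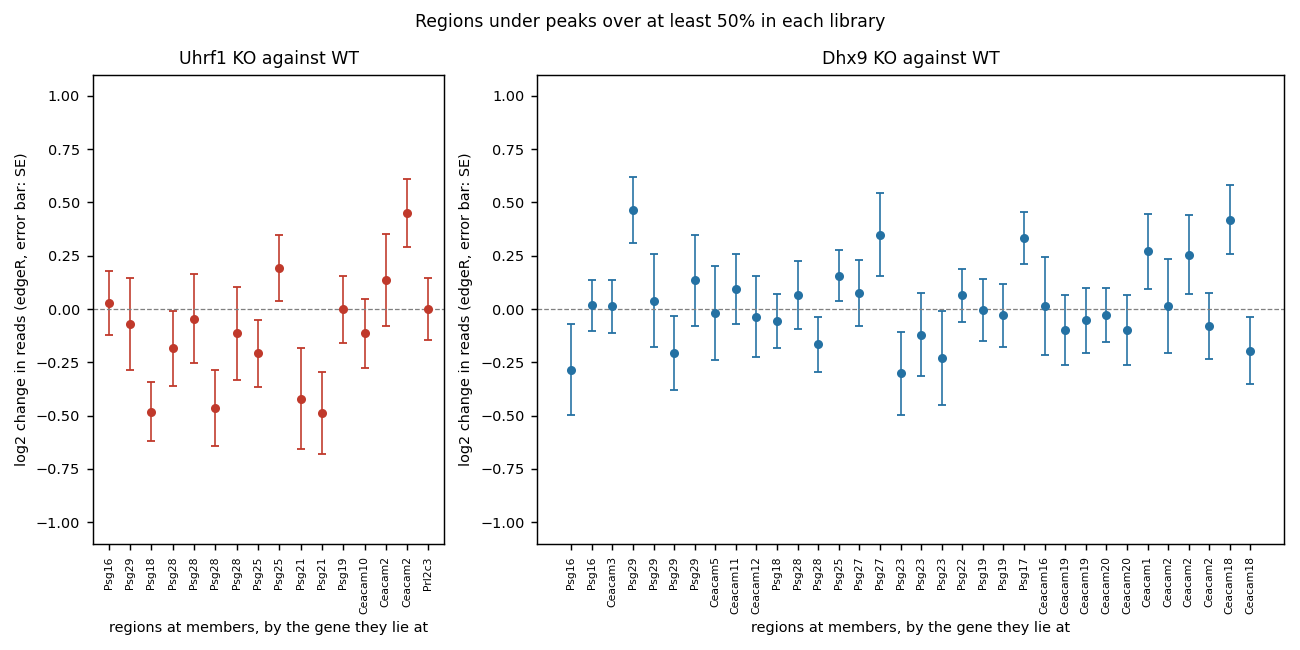
Log2 change in ChIP reads against WT from edgeR (vertical axis, points, with SE as error bars) at the 16 regions at members in the Uhrf1 KO comparison and the 34 in the Dhx9 KO comparison that were covered over at least 50% in each library, in chromosome order. Points lie on both sides of 0, between -0.49 and 0.46, and none passed an FDR of 0.05.

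Among all merged regions at members, called or not in each library, 17 of 89 were lost in Uhrf1 KO cells (both WT libraries and neither KO library), beside 13.7% of all regions, and none was gained (3.0% of all). In Dhx9 KO cells 2 of 90 were lost and 2 gained, beside 3.52% and 4.11%. Peaks were kept in all 4 libraries at 41 and 54 of these regions, for Uhrf1 KO and Dhx9 KO, beside 28.9% and 37.5% of all regions. These shares also count regions without a peak in both WT libraries, so they do not give the loss among WT peaks. For Uhrf1 KO, 17 lost stood beside 41 kept at members, and 19296 lost beside 40511 kept over all regions. Mixed regions made up 34.8% at members and 54.4% of all.

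A list of 30 genes of lactogen signalling and trophoblast was read in the same way, and it was chosen with earlier results of these data known. A peak was found at 20 and 18 of the 30 in WT, 14 and 17 in Uhrf1 KO and 20 and 21 in Dhx9 KO, beside 64.8% and 64.8%, 39.8% and 53.5%, and 66.1% and 60.7% of all genes. Prolactin itself (Prl), Eomes and Plac1, both of trophoblast, and Tpbpb had none in any library. A lower share in both Uhrf1 KO libraries was found for Socs2, Stat5a and Stat5b of 8 signalling genes, Ctsll3 of 12 trophoblast products, which lost every peak, and Ascl2, Gata3 and Tfap2c of 8 trophoblast transcription factors. These are 7 of the 30 genes with a lower share and 1 lost, beside 47.5% lower among all genes with any peak and 17.6% lost among all genes with a peak in both WT libraries. The bases differ, as the 30 include 1 signalling gene, 4 trophoblast products and 2 transcription factors with no peak in the WT and Uhrf1 KO libraries. Such genes are left out of the shares over all genes. Ascl2, an imprinted gene needed for spongiotrophoblast, was at 58.5% and 58.6% in WT, 3.51% and 15.97% in Uhrf1 KO and 39.9% and 23.0% in Dhx9 KO. Stat5a, a transducer of the prolactin receptor, was at 50.2% and 37.3% in WT and 5.03% and 22.9% in Uhrf1 KO. The placental cathepsins Cts3 and Ctsr and the receptor gene Prlr had a higher share in both Uhrf1 KO libraries (7.7% of all genes with any peak), and Cts3 and Prlr in both Dhx9 KO libraries too (14.1%). A lower share in both Dhx9 KO libraries was found for Ascl2 and Prlh (23.0% of all genes with any peak). Prlh, which encodes prolactin releasing hormone, was at 56.0% and 49.9% in WT and 28.6% and 0% in Dhx9 KO. Cts3 was at 26.8% and 26.8% in WT, 34.5% and 33.2% in Uhrf1 KO and 37.1% and 66.5% in Dhx9 KO. None of the 30 lost every peak in Dhx9 KO cells.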

How the data were processed

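The 6 peak lists of WT, Uhrf1 KO and Dhx9 KO cells were used, 2 libraries each. Per the study's methods, single-end reads of 150 bases were aligned to mm10 with Bowtie2 (2.3.4.3), subsampled with SAMtools to a common number of reads per library, and peaks were called per library in bins of 200 bp by epic2, which the submitters' processing notes list as SICER 0.0.51, with duplicates kept. For each peak, the authors deposited counts of ChIP and background reads, a p-value with its FDR, a score and a log2 fold over background. Reads in peaks numbered between 6703081 and 20875020 per library, and total reads are not in the lists. A low number of reads in peaks can therefore be a low depth or a low share of reads in peaks, which cannot be told apart here. The stated subsampling would make depth equal, but the totals to check it are missing. The smallest peak held 14 ChIP reads in Uhrf1 KO replicate 1 and between 25 and 27 in the other libraries. The deposited annotation carries a reporter of 2762 bases on chromosome 2 that the peak coordinates do not, and positions there were shifted back.

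From these, the percent of each gene window (transcripts plus 5 kb) under peaks was computed in Python (3.11.15). A gene was called lost where both WT libraries and neither KO library had a peak, and gained in the reverse case. Family shares were compared with two-sided exact permutation tests. Reads summed over merged regions were tested in edgeR (4.0.16, R 4.3.3) with the quasi-likelihood test, TMM scaling, called length as offset and Benjamini-Hochberg adjustment, at an FDR of 0.05. Errors of log2 changes are SE. In a simulation of the 2528 regions for Uhrf1 KO, 189 of 200 planted 2-fold changes were recovered, with 10 false calls. Of 200 planted among the 4701 regions for Dhx9 KO, 180 were recovered, with 6 false calls. The simulated counts had the same spread setting for all regions, and no change was planted at those with the fewest reads. Sequences and repeat masking came from RefSeq tables and the GRCm38 genome.

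Genes named were those lost or gained, the 3 with the highest and the 3 with the lowest WT share in each family, those with the smallest p among tested regions, and those with a well known role. Other members named were chosen after their values were seen. The members and lists were chosen with earlier results of these data known. Alternatives were DESeq2 (1.42.0), other scaling, filters, flanks and peak thresholds, leaving out each library, and a replicate block. The labels do not say whether libraries came from separate cultures, while the methods call them biological replicates.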

Additional observations from a re-analysis of the deposited data

How the results depend on the processing

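Of 278 alternatives over 30 results, 202 left the value within its tolerance and 76 moved it. Some directions changed: the Prl differences, 0.699 for Uhrf1 KO and 1.01 for Dhx9 KO in the main setting, were negative without flanks. For Uhrf1 KO, the Psg and Ceacam share differences, in percentage points, were -3.71 and -7.27 with peaks of log2 fold of at least 1, -10.1 and -6.49 with equal numbers of peaks and -8.60 and -13.7 with 20 kb of flank, and the Ceacam difference was -12.6 at an FDR of at most 1e-10. The Prl difference was -1.76 without flanks. Lost Prl genes numbered 1 under the FDR, log2 fold, equal-number and no-flank settings and 3 with 20 kb, lost Psg genes 1 at the strict FDR, and lost Ceacam genes 1 at the strict FDR and with equal numbers and 0 with log2 fold of at least 1 and with 20 kb; 1 Ceacam gene was gained with log2 fold of at least 1. For Dhx9 KO, the Ceacam difference was -2.81 (strict FDR), -2.38 (equal numbers) and -0.574 (20 kb), the Psg difference 3.89 (20 kb) and the Prl difference -1.29 (no flanks). Gained Prl genes were 0 without flanks and with 20 kb, 1 Ceacam gene was lost and 1 gained without flanks, and 1 was gained with an overlap of at least 400 bp. Equal numbers of peaks were an alternative chosen after seeing the data. Members with lower and higher shares then numbered 11 and 5 of 36 with any peak for Uhrf1 KO, beside 22.6% and 18.4% of all genes. Higher ones numbered 5 of 38 for Dhx9 KO, beside 13.8%. The causes were not tested.

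Over all regions, lower and higher calls for Uhrf1 KO were 93 and 13 in DESeq2, 31 and 1525 with library size from total reads in peaks, 42 and 9 with all 6 libraries in 1 fit, where no region at members could be tested, and 134 higher without length offset. The total-read scaling shifted the median log2 change of all regions to 0.56, and 1 region at members was then called higher. For Dhx9 KO, lower calls were 13 with total reads, 12 without offset and 7 with all 6 libraries, and higher calls 1 in DESeq2, with total reads and at 50% coverage. With a replicate block, calls were 141 lower and 71 higher for Uhrf1 KO and 64 lower and 16 higher for Dhx9 KO, with 0 at members. Same-numbered libraries correlated at 0.065 (Uhrf1 KO) and -0.0694 (Dhx9 KO) in their deviations from the group means. With 2 libraries in a group these deviations mirror each other, so each value rests on 1 contrast. It cannot decide whether same-numbered libraries were handled together.

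Leaving out 1 library at a time gave 49 to 200 lower and 4 to 156 higher regions for Uhrf1 KO, 7 to 502 and 2 to 232 for Dhx9 KO, and 0 at members. The Uhrf1 KO differences then ran from -30.7 to -12.7 for Psg, -23.0 to -16.7 for Ceacam and -0.437 to 1.83 for Prl, with 0 to 2 Psg, 2 to 3 Ceacam and 0 to 1 Prl genes lost and 0 to 1 Ceacam and 0 to 1 Prl genes gained. The Dhx9 KO differences ran from -1.74 to 3.00 for Psg, -5.85 to -3.75 for Ceacam and 0.0673 to 1.95 for Prl, with 0 to 1 Ceacam and 0 to 1 Prl genes lost and 0 to 1 Ceacam and 2 to 4 Prl genes gained. Members with lower shares numbered 21 to 25 of 36 or 37 for Uhrf1 KO, beside 49.8% to 68.2% of all genes. Those with higher shares numbered 3 to 8, beside 11.3% to 22.4% of all genes. For Dhx9 KO, members with lower shares numbered 12 to 17 of 38 to 40, beside 32.8% to 44.5% of all genes. Those with higher shares numbered 10 to 16, beside 21.2% to 34.8% of all genes. Only members and genes with any peak are counted here. Uhrf1 KO replicate 1 had the fewest reads in peaks, and the part of this in its calls was not tested.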
